A study of Mus musculus with 4 samples.

Results

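The genes described here are 35 components and targets of the interferon response, followed across 4 cultures of a mouse hepatic stellate cell line. They were taken by gene name from the array annotation with no filter on their signals, but the set was chosen with earlier results of these data known. They comprise 4 receptor chains, 6 transcription factors, 2 feedback regulators, 4 genes of RNA sensing, 3 genes of the IFIT family, 3 of the OAS family, 4 large GTPases and 9 other effectors. Together they had 55 of the 41174 probes and were 35 of the 26683 genes on the array. In all, 34 of the 35 were well above background on all 4 arrays by the scanner's own flag. The exception was Mx1, an antiviral GTPase, whose 2 probes were above background on none.

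The cells were IMS/N, a stellate line from the liver of normal 129/Sv mice, made immortal with SV40. This is 1 immortalized line, and the labels name no second isolate. The untreated culture received neither agent. The IL17A culture received recombinant mouse IL17A, a cytokine of T cells. The medium culture received medium in which adipose-derived stem cells (ADSC) had been grown, and the last culture received both agents. The ADSC came from inguinal subcutaneous fat of male C57BL/6J mice of 8 to 10 weeks. Dose, exposure time and the composition of a control medium are not given in the sources used here. Each group was 1 sample on 1 array, so no difference between groups below has a replicate check.

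Interferons are cytokines that put cells into an antiviral state. Type I interferons bind the chains IFNAR1 and IFNAR2, and the kinases JAK1 and TYK2 then activate a complex that holds STAT2 and IRF9 and binds the interferon-stimulated response element in promoters. Interferon gamma binds IFNGR1 and IFNGR2 and acts mainly at the gamma-activated site, whereas IL17A signals through another receptor, toward NF-kB and C/EBP factors. In the liver, stellate cells store vitamin A, make collagen when activated, and can respond to interferons.

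The promoters of 5 members with prominent values below are shown first, because 4 of them carry the element through which type I interferon acts and that of Ifit2 does not show it. RefSeq gave a promoter entry on GRCm38.p6 for 29 of the 35 members. The search covered the 250 bases before to 50 bases after each transcription start, on both strands, and the 250 bases before the start are printed 5′ to 3′ on the strand of the gene. Capitals mark each match to the core of the interferon-stimulated response element, which is GAAA, any 2 bases and GAAA again, or to its reverse complement, and overlapping matches run together.
Ifit1, chr19:34640639-34640888, plus strand: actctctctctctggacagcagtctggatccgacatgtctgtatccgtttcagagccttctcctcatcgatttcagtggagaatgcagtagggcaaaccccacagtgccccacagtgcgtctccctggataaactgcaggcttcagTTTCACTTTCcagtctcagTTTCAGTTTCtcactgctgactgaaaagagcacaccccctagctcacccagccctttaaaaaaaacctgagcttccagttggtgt
Ifit3, chr19:34583279-34583528, plus strand: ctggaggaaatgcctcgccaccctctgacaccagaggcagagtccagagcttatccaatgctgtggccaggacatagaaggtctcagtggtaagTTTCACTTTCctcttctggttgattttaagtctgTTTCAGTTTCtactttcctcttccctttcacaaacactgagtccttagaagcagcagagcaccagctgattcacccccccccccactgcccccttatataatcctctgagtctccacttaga
Ifit2, chr19:34550444-34550693, plus strand: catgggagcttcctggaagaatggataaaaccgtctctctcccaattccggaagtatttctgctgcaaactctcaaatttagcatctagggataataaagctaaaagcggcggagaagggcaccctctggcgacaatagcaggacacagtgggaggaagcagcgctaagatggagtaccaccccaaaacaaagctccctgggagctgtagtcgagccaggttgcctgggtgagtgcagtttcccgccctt
Gbp2, chr3:142620413-142620662, plus strand: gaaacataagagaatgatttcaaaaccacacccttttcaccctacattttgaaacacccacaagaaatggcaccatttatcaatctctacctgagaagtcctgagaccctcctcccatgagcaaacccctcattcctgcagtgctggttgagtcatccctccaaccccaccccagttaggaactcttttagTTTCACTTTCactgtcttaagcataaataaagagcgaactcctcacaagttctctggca
Isg15, chr4:156200819-156201068, minus strand: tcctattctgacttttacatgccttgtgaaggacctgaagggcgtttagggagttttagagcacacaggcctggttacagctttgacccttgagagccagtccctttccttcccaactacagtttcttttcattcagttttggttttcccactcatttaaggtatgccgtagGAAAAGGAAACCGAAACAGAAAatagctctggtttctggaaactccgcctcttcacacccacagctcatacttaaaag
Ifit1 and Ifit3 each held 2 matches, beginning 104 and 156 bases before the start. Gbp2 held 1 match, 59 bases before its start, and Isg15 held 3 overlapping ones. The Ifit2 window shown held none, and neither did the window of its other RefSeq start, which says only that these letters are not in them. Over the members, 13 of 29 (44.8%) held the element in at least 1 window, against 3.99% of 27025 genes. The gamma-activated site TTCNNNGAA was found in 9 of 29 members (31.0%), against 9.55% of genes. The NF-kB site, searched as GGG, any 2 bases and TTTCC, was found in 2 of 29 (6.90%), against 1.89%.

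Between 58.1% and 60.5% of the 43379 spots of an array were well above background, and no spot was saturated. Levels below are log2 processed signals, quantile normalized over the 4 arrays, and a difference of 1 is 2-fold. For probes printed repeatedly, the scatter of copies within each array was measured. It implied an SD of a log2 difference of 0.085 at levels of 7 and above and of 0.51 below 5. That is the error of a spot, not of an array or a culture. Slide 1 carried the untreated and IL17A arrays, and slide 2 carried the 2 medium arrays. The medium and the slide therefore cannot be told apart, while the IL17A comparisons each lie within a slide. Of 12 stellate and fibroblast markers, 7 were well above background on all 4 arrays, among them Vim, Col1a1, Acta2 and Pdgfrb. Gfap and Reln were on none, Lrat and Hgf on 1 and Des on 3. Markers listed for other cells were present in part. Of 8 macrophage and leukocyte markers, Cd68, Csf1r, Cd14 and Lyz2 were above background on all 4 arrays, Ptprc on 1, and Adgre1, Itgam and Clec4f on none. Of 4 dendritic markers, Tcf4 and Bst2, itself a member here, were on all 4 and Siglech and Irf8 on none. Of 5 endothelial markers, Kdr and Stab2 were on all 4 and Pecam1, Cdh5 and Tek on none. The 4 hepatocyte markers, Alb among them, were on none.

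Among the receptor chains, Ifnar2 and Ifngr1 had IL17A arrays that stood apart from the others, in opposite directions. Ifnar2, the chain that binds type I interferon most tightly, had log2 levels of 10.30 on the untreated array, 10.86 with IL17A, 10.43 with medium and 10.82 with both, by its brighter probe. Both arrays with IL17A were above both arrays without it. Its second probe read 8.32, 9.65, 8.54 and 9.51 in the same order. By that probe the level was higher by 1.33 with IL17A than without, and by 0.97 in the presence of medium. The brighter probe gave 0.56 and 0.39, so the probes differed in size and not in direction.
The first 30 of the 60 bases of each Ifnar2 probe, with mm9 positions on the plus strand of chromosome 16, show that they read separate stretches of the gene.
Ifnar2, brighter probe, chr16:91394044-91394103: gtccttagagacttacttccaaagacaaac
Ifnar2, second probe, chr16:91405479-91405538: tacatgggtcctggctcaaagacttccaat
The annotation assigns the brighter probe to 3 RefSeq transcripts of Ifnar2 and the second probe to 2 of those 3. Ifnar2 is known to be made as membrane-bound and soluble forms, and which form each probe reads was not tested.

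Ifnar1, the other type I chain, read 8.21, 8.51, 8.00 and 7.90 on the untreated, IL17A, medium and double-treated arrays. It was highest with IL17A alone, and its IL17A difference was 0.30 without medium and -0.10 with it. Ifngr1, the ligand-binding chain for interferon gamma, read 11.12, 10.61, 11.12 and 10.69. Both arrays with IL17A were below both without, by 0.51 and 0.43. Ifngr2, the signalling chain for interferon gamma, read 11.03, 11.23, 11.14 and 11.21, a spread of 0.20 over all 4 arrays by its brighter probe. Its second probe read 10.09, 10.29, 9.79 and 9.67. The IL17A differences were 0.20 and -0.12 by that probe and 0.20 and 0.07 by the brighter one. For medium the second probe gave -0.30 and -0.62, against 0.11 and -0.019, so the probes differed in direction.

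**Figure D1:**
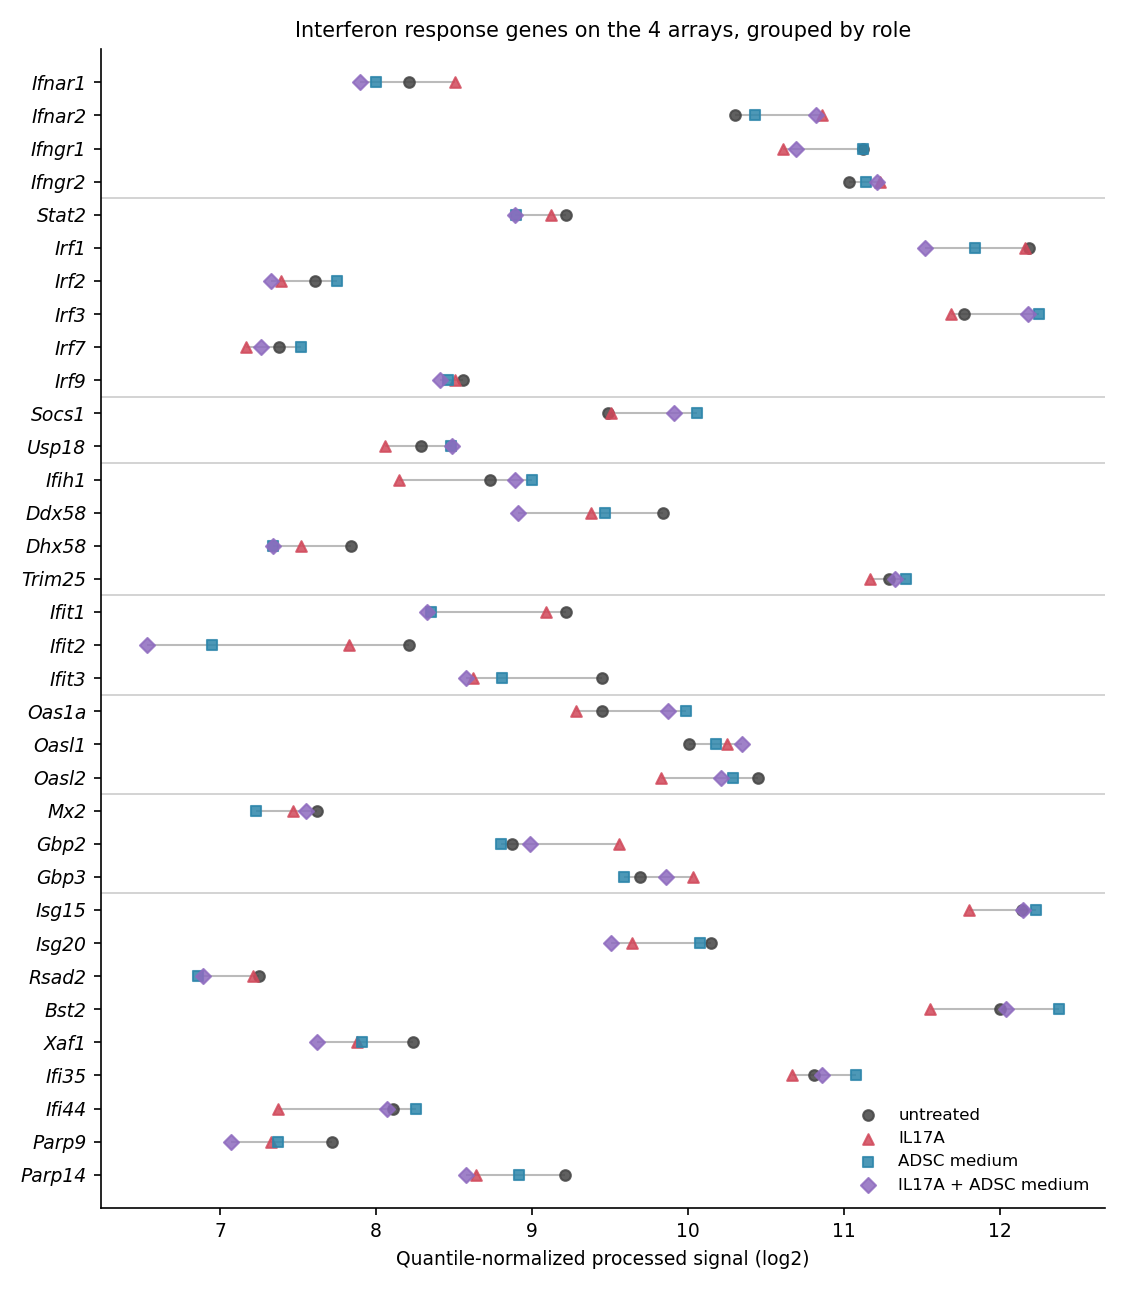
Quantile-normalized log2 processed signal (x axis) of the 34 interferon response genes above background, by their brightest probe, with 1 point per array and horizontal lines between roles. The grey bar spans the 4 arrays of a gene: it is longest for Ifit2 (1.68) and shortest for Irf9 (0.15).

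The 6 transcription factors had ranges over the 4 arrays from 0.15 for Irf9 to 0.67 for Irf1, where the median of all genes was 0.39. Irf1, which is induced by interferon gamma and by NF-kB, read 12.19, 12.16, 11.84 and 11.52. It was lowest with both agents, by 0.67 against the untreated array. Irf3, which switches on type I interferon genes after virus sensing, read 11.77, 11.69, 12.25 and 12.18. Both medium arrays were above both others, by 0.47 and 0.50. Its second probe, at 6.84, 6.68, 6.68 and 7.02, gave -0.17 for medium against untreated, so the probes differed in direction.
Stat2, the part of the type I complex that activates transcription, read 9.22, 9.12, 8.90 and 8.89. Irf9, the DNA-binding part of that complex, read 8.56, 8.51, 8.46 and 8.41. Both were highest untreated and lowest with both agents. Irf2, which opposes Irf1 at shared sites, read 7.61, 7.39, 7.75 and 7.33. Irf7, the factor that amplifies type I interferon production, read 7.38, 7.17, 7.52 and 7.26. In Irf2 and Irf7 each array with IL17A was below its partner without it.
By brightest probes, all 6 factors had IL17A differences below 0 in both comparisons, against 49.5% and 57.0% of all genes. These ran from -0.22 to -0.023 without medium and from -0.42 to -0.0075 with it. The second Irf1 probe gave 0.24 and -0.59, and the second Irf3 probe -0.16 and 0.35. Median scaling left 2 of the 6 below 0 without medium, although all 6 stayed below the median of all genes. The dim second probe of Irf9 read 3.28, 3.89, 3.95 and 3.37 and gave 0.61 and -0.57, against -0.052 and -0.045 by the brighter probe. At such levels the spot error was 0.51.

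No member passed 2-fold with IL17A by its brightest probe, without medium (0 of 34, against 4.48% of 15802 genes tested) or with it (0 of 34, against 4.68% of 16061). The 34 members had mean levels of 7.05 or more, whereas the genes tested included dim ones with a larger spot error. This holds for each share of all genes past a threshold. At 1.5-fold, 4 of 34 members passed without medium, against 12.3% of genes, and 0 of 34 with medium, against 13.4%. The 4 were Gbp2, which was higher (2.94%, against 5.71% of genes), and Ifit3, Ifi44 and Oasl2, which were lower (8.82%, against 6.56%).
More members lay below 0 than above. Without medium 27 of 34 were below 0 (79.4%), against 49.5% of the 14480 genes above background on all 4 arrays. With medium 25 of 34 were below 0 (73.5%), against 57.0%. In all, 23 of 34 members were below 0 in both comparisons (67.6%), against 34.5% of genes, and 5 were above 0 in both, namely Ifnar2, Ifngr2, Oasl1, Gbp2 and Gbp3. The comparisons share no array.
The differences were small. The members' median was -0.19 without medium, where that of all genes was 0.0017, and -0.10 with medium, where that of all genes was -0.031. Median scaling moved the median of all genes to 0.21 and -0.24, more than the members' own shift, and left 17 of 34 members below 0 without medium. Relative to the median of all genes, 27 of 34 members were lower without medium and 23 of 34 with it under quantile scaling. Percentile and median scaling gave the same counts. Both shift all genes of an array alike, so such counts, here and by role, cannot differ between them. With the mean of a gene's probes, 23 of 34 were lower without medium and 23 of 34 with it. Less RNA of these genes per cell and fewer cells that express them cannot be told apart in bulk RNA.
Summed marker levels also differed between arrays. Those of the 12 stellate and fibroblast markers were 16.95 untreated, 16.29 with IL17A, 16.61 with medium and 16.15 with both, lower on each IL17A array than on its partner. Vim, Col1a1 and Col1a2 made up most of these sums and were each lower on both IL17A arrays, as was Acta2. Pdgfra went the other way, at 7.75, 8.39, 7.32 and 7.98. Pdgfrb and Lhx2 were lower with IL17A alone and higher with IL17A when medium was present. The summed levels of the dendritic list were 12.20, 11.81, 12.48 and 12.17, and Bst2, itself a member, made up most of them. Bst2 read 12.00, 11.55, 12.38 and 12.04. Tcf4, the only other one above background, read 9.22, 9.22, 8.61 and 8.61, with no IL17A difference. The endothelial list summed to 5.10, 4.94, 5.10 and 4.78. Its genes above background, Kdr and Stab2, read at most 4.03, where the spot error was 0.51, so no direction is read from them. The summed log2 level of 8 macrophage and leukocyte markers was 9.11 untreated, 10.39 with IL17A, 9.08 with medium and 9.77 with both, of which Cd14 made up most, and 4 of the 8 were above background on all arrays. The adipocyte list, of 4 genes with Fabp4 above background on all arrays and Adipoq, Plin1 and Lep on none, summed to 7.10, 8.40, 6.95 and 7.43. Their part in the members' values was not tested.

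**Figure D2:**
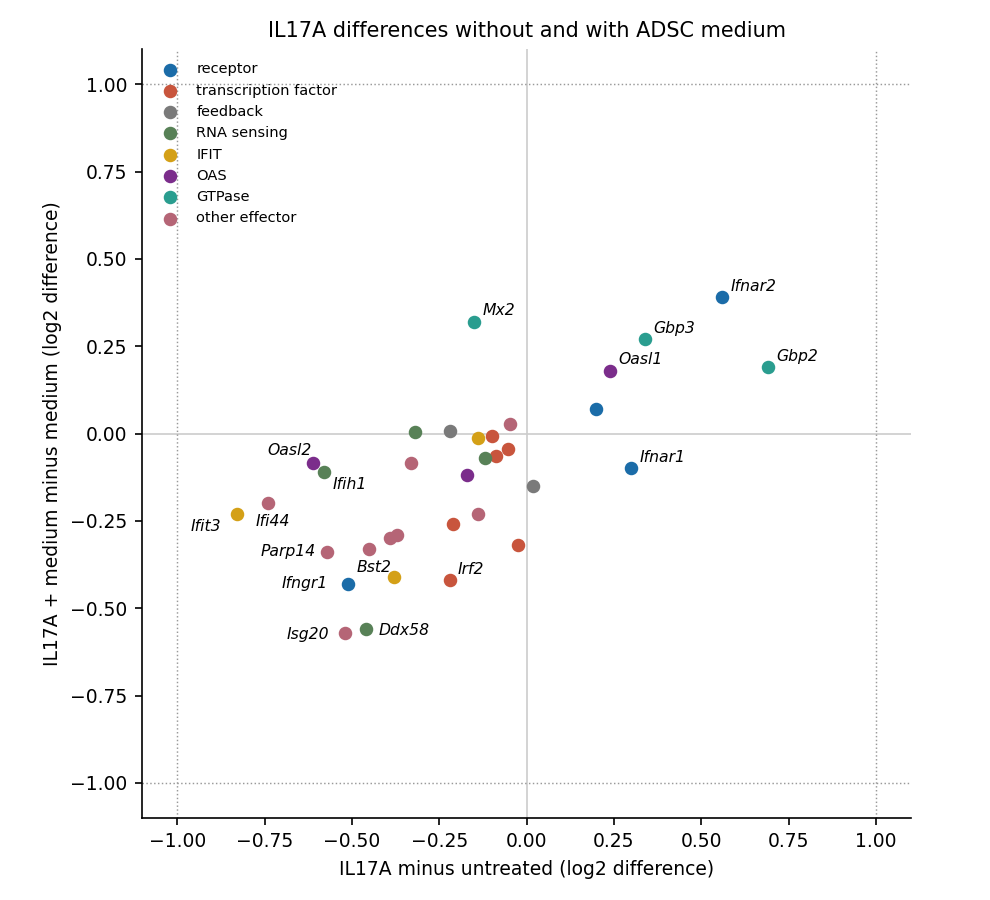
IL17A minus untreated (x axis) against IL17A with medium minus medium alone (y axis), as log2 differences, for 34 genes coloured by role; dotted lines mark 2-fold. Most points lie in the lower left, no point lies beyond a dotted line, and Ifnar2, Gbp2, Gbp3, Oasl1 and Ifngr2 are in the upper right.

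Across the 34 members the IL17A differences without and with medium gave r = 0.665 (Pearson) and rho = 0.646 (Spearman). Over 14480 genes r was 0.425. The members' mean levels were 7.05 or more, while the 5th percentile of all genes was 3.70, where the spot error was larger. Its part in the gap between the r values was not tested. The correlations are across genes, which are not independent replicates.
An additive limma fit, in which all 4 arrays give 1 IL17A effect and medium is a covariate, had 1 residual degree of freedom. That residual is the gap between the IL17A differences without and with medium. The fit assumes that medium does not change the IL17A response. Its SE and p-values therefore do not measure the spread between replicate cultures. It called 6 of 34 members at an adjusted p under 0.05. Of these 1 rose (2.94%), against 2.54% of 15472 genes, and 5 fell (14.7%), against 3.79%. Ifnar2 rose by 0.48 (SE 0.071, limma with Benjamini-Hochberg adjustment, adjusted p = 0.014). Isg20, a nuclease that degrades RNA, fell by 0.55 (SE 0.072, adjusted p = 0.009 by limma). Ifngr1 fell by 0.47 (SE 0.063, adjusted p = 0.0094 by limma). Ddx58, which encodes the RNA sensor RIG-I, fell by 0.51 (SE 0.08, adjusted p = 0.017 by limma).
Bst2, the tetherin that holds budding virus at the cell surface, fell by 0.39 (SE 0.059, adjusted p = 0.015 by limma). Parp14, a mono-ADP-ribosyltransferase, fell by 0.45 (SE 0.098, adjusted p = 0.045 by limma).
These calls depended on the settings of the fit. Without an intensity trend in the variance no gene on the array was called by limma and 1852 genes had an unadjusted p under 0.05. The smallest adjusted p of a member was then 0.33 (limma), and 10 members had an unadjusted p under 0.05. With 75th percentile scaling no member was called, although 18 had an unadjusted p under 0.05 and the smallest adjusted p was 0.059 (limma, Ifngr1).

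By brightest probes, the 4 genes of RNA sensing were all below 0 with IL17A alone, from -0.58 to -0.12, against 49.5% of all genes. Under median scaling 3 of the 4 were below 0, and all 4 were below the median of all genes. Ifih1, which encodes the sensor MDA5, had processed signals of 446, 278, 500 and 471. The IL17A array was lowest, and with medium present the IL17A difference was -0.11. Its second probe gave -0.49 and -0.39, so both probes gave a smaller difference with medium, by unequal amounts.
Ddx58 read 9.84, 9.38, 9.47 and 8.91, highest untreated and lowest with both. All 4 of its probes were below 0 in both IL17A comparisons, between -0.53 and -0.18 without medium and between -0.66 and -0.44 with it. For medium alone its probes spread from -0.37 to 0.35.
Dhx58, the regulatory relative of these sensors known as LGP2, read 7.84, 7.52, 7.34 and 7.34. Trim25, the ubiquitin ligase that acts on RIG-I, read 11.29, 11.17, 11.40 and 11.33 and differed by at most 0.23 between arrays by its brighter probe. Its second probe gave IL17A differences of 0.17 without medium and -0.13 with it. The dim second probe of Dhx58 had the opposite sign in both IL17A comparisons, 0.23 and -0.35 against -0.32 and 0.003, and for medium alone it gave 0.067 against -0.51.

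The IFIT genes included the lowest value of the set with medium. Their products bind foreign RNA and block its translation. Ifit2 had processed signals of 314 untreated, 224 with IL17A, 117 with medium and 94.3 with both, or log2 levels of 8.21, 7.83, 6.95 and 6.53. Each array with medium was below both arrays without it. The level was 2.40-fold lower with medium than untreated (-1.27) and 2.46-fold lower with medium and IL17A than with IL17A alone (-1.30). Its second probe, which reads another stretch of the transcript, gave -1.26 and -1.34. Over the alternative settings the values ranged from -1.31 to -1.02 and from -1.48 to -1.04. The first 30 of the 60 bases of each Ifit2 probe, with mm9 positions on the plus strand, show the separate stretches read.
Ifit2, brighter probe, chr19:34650244-34650303: tcatataaacatttatttcaagagtatgga
Ifit2, second probe, chr19:34648307-34648366: ttgcaaggtatatgacacagacagagctat
By the members' brightest probes, Ifit2 was the only one past 2-fold with medium. That was 1 of 34 (2.94%) lower and 0 higher, where 2.98% of genes were lower and 2.45% higher, and against IL17A alone it was again 1 of 34, where 3.12% were lower and 3.23% higher. By brightest probes, the share of members past 2-fold was no larger than that of all genes. Among dimmer probes of other members, medium added to IL17A gave -1.01 for the second Irf1 probe and -1.34 for an Rsad2 probe.

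Ifit1 read 9.22, 9.09, 8.35 and 8.33, with both medium arrays below both others, by 0.88 and 0.75. Ifit3 read 9.45, 8.62, 8.81 and 8.58. The untreated array stood apart as the highest, and the remaining 3 lay within 0.23 of each other. With IL17A alone Ifit3 was 1.78-fold lower (-0.83), and with medium alone 1.56-fold lower (-0.64). Medium added to IL17A made a difference of -0.039. The value of -0.83 was the lowest IL17A difference of the 34 members without medium, by their brightest probes. With medium present Ifit3 was at -0.23, and the lowest was Isg20 at -0.57. The Ifit2 and Ifit3 probes lie 12.9 kb apart and those of Ifit3 and Ifit1 60.7 kb apart on chromosome 19. Related Ifit genes share sequence, and whether the probes also read those copies was not tested. The 3 genes were below 0 in both medium comparisons under quantile, percentile and median scaling. Under quantile scaling 43.6% and 47.2% of all genes were below 0.

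With medium alone 18 of 34 members were below 0 (52.9%), against 43.6% of genes. With medium added to IL17A the count was 19 of 34 (55.9%), against 47.2%. The members' medians were -0.074 and -0.035, where those of all genes were 0.042 and 0.021. Under median scaling, with medians of all genes at 0.27 and -0.17, 13 and 25 members were below 0, so these counts follow the scaling. At 1.5-fold, medium alone set apart 3 of 34, against 15.2% of genes, and these were Ifit1, Ifit2 and Ifit3, all lower, against 7.96% of genes lower and 7.27% higher. Medium added to IL17A set apart 7 of 34, against 17.9%, with Ifit1, Ifit2, Irf1 and Ifnar1 lower (11.8%, against 8.89% of genes) and Ifih1, Ifi44 and Oas1a higher (8.82%, against 9.03%).
Socs1, a feedback inhibitor of JAK kinases, had the largest difference above 0 with medium alone among the members' brightest probes. It read 9.49, 9.51, 10.06 and 9.91, with both medium arrays above both others, by 0.58 and 0.40. Usp18, which removes ISG15 from proteins and damps IFNAR2 signalling, read 8.29, 8.06, 8.48 and 8.49, again higher on both medium arrays.
Across the 34 members the medium differences without and with IL17A had r of 0.814 and rho of 0.800. Over all genes, which include dimmer ones, r was 0.521. Both pairs share the contrast between slides.

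**Figure D3:**
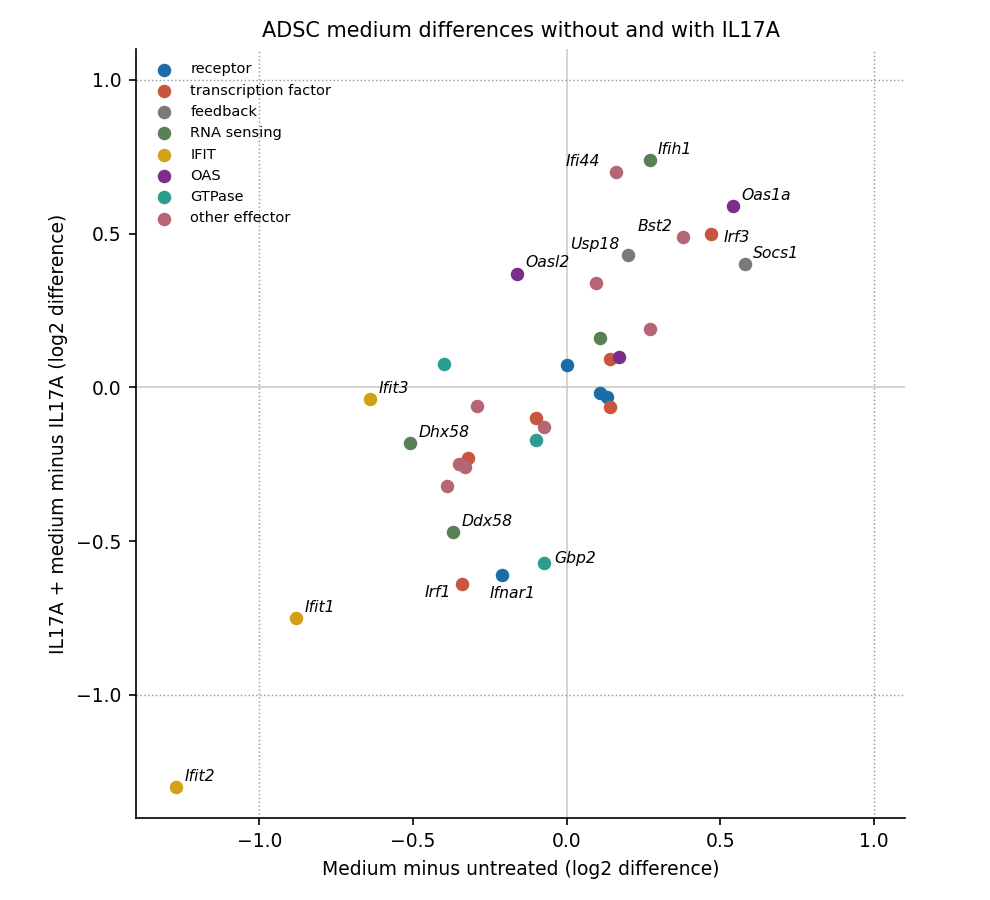
Medium minus untreated (x axis) against medium with IL17A minus IL17A alone (y axis), as log2 differences, for 34 genes coloured by role; dotted lines mark 2-fold. Ifit2 alone lies beyond 2-fold, at -1.27 and -1.30, followed by Ifit1 at -0.88 and -0.75, and Oas1a, Socs1, Irf3 and Bst2 lie in the upper right.

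In the OAS family, whose members make or relate to the enzymes that make the messenger of RNase L, the genes did not move together. Oas1a read 9.45, 9.28, 9.99 and 9.87, with both medium arrays above both others, by 0.54 and 0.59. Oasl1, which restrains Irf7 translation, read 10.01, 10.25, 10.18 and 10.35, lowest untreated. Oasl2, an OAS-like gene, read 10.45, 9.83, 10.29 and 10.21. The IL17A array alone was low, by 0.61 against untreated, and with medium the IL17A difference was -0.085. The probes of Oasl1 and Oasl2 lie 25.4 kb apart on chromosome 5, and their IL17A differences without medium had opposite signs.

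Among the GTPases, Gbp2 had the largest difference above 0 with IL17A alone among the members' brightest probes. The second Ifnar2 probe was higher, at 1.33. Guanylate-binding proteins coat vacuoles and bacteria in infected cells. Gbp2 had processed signals of 492, 748, 434 and 503, or levels of 8.87, 9.56, 8.80 and 8.99. The IL17A array stood 1.61-fold above untreated (0.69), and the other 3 lay within 0.19 of each other. With medium the IL17A difference was 0.19, and it ranged down to -0.026 over the settings tried.
Its neighbour Gbp3, with a probe 64.6 kb away, read 9.69, 10.03, 9.59 and 9.86. Both arrays with IL17A were above both without, by 0.34 and 0.27. Mx2, an antiviral GTPase related to Mx1, read 7.62, 7.47, 7.23 and 7.55 and was lowest with medium alone. The 2 Mx1 probes had processed signals of at most 2.08 for the brighter, so its levels are not described.

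By brightest probes, the 9 other effectors were all below 0 with IL17A alone, from Ifi44 at -0.74 to Rsad2 at -0.048, against 49.5% of all genes. With medium present 8 of 9 were below 0, against 57.0%. Median scaling left 7 of 9 below 0 without medium, and all 9 stayed below the median of all genes. Isg15, the ubiquitin-like modifier of interferon-treated cells, had processed signals of 4646, 3458, 4826 and 4547 and levels of 12.14, 11.80, 12.23 and 12.15. The IL17A array alone was low and the other 3 lay within 0.094 of each other. Ifi44, which encodes an interferon-induced antiviral protein, read 8.11, 7.37, 8.26 and 8.07, again with the IL17A array alone low, 1.67-fold below untreated.
Isg20 read 10.15, 9.64, 10.08 and 9.51, and Bst2 read 12.00, 11.55, 12.38 and 12.04. Isg20 was lower on both IL17A arrays than on both others, by 0.52 and 0.57. Its second probe gave -0.42 and -0.68. Bst2 was lowest with IL17A and highest with medium, and its level with both agents was 0.043 from untreated.
Parp14 read 9.21, 8.64, 8.92 and 8.58. Its partner Parp9 read 7.72, 7.33, 7.37 and 7.07. Xaf1, a pro-apoptotic gene, read 8.24, 7.88, 7.91 and 7.62. These genes shared an order, with the untreated array highest and the array with both agents lowest.
Ifi35 read 10.81, 10.67, 11.08 and 10.86, a range of 0.41. Rsad2, which encodes viperin, read 7.25, 7.21, 6.86 and 6.89, lower on both medium arrays. The 2 dimmer probes of Rsad2, at 4.63 and 3.86 untreated, gave 0.58 and 0.81 with IL17A, against -0.048 by the brightest. Its probes thus had mixed signs for IL17A and a common sign for medium alone, from -0.68 to -0.39. For medium added to IL17A they ranged from -1.34 to -0.32.

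**Figure D4:**
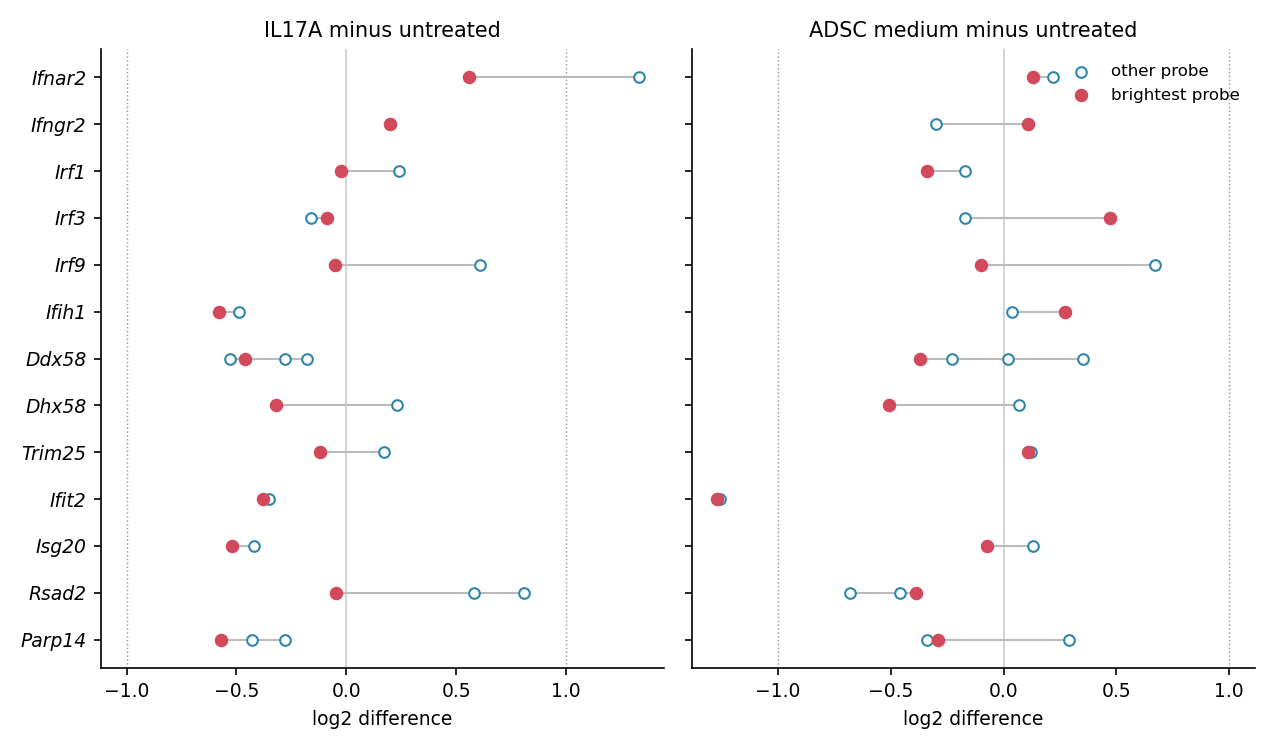
Log2 differences of each probe of the 13 members with at least 2 probes above background on all arrays, for IL17A minus untreated (left) and medium minus untreated (right). The probes of a gene had a common sign in 8 of 13 genes on the left and in 6 of 13 on the right; the Ifit2 probes coincide near -1.27 and the second Ifnar2 probe is past 2-fold at 1.33.

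Where 13 members had at least 2 measured probes, all probes of a gene had the same sign in 8 genes for IL17A alone, in 9 for IL17A with medium, in 6 for medium alone and in 10 for medium added to IL17A. The genes with mixed signs for medium alone were Ifngr2, Irf3, Irf9, Ddx58, Dhx58, Isg20 and Parp14. For IL17A alone they were Irf1, Irf9, Dhx58, Trim25 and Rsad2.

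The IL17A differences without and with medium were also subtracted from each other. This difference of differences was 0.60 for Ifit3, 0.54 for Ifi44 and 0.53 for Oasl2, where the IL17A array lay below untreated and the step was smaller with medium. These were 3 of 34 members at 0.5 or more in size (8.82%), against 15.0% of all genes, which include dimmer ones. It was 0.47 for Ifih1 and for Mx2, and -0.49 for Gbp2 and -0.40 for Ifnar1, where the step was upward with IL17A alone. The median over members was 0.051 and over all genes -0.03. With 4 arrays no residual degree of freedom is left, so these values were not tested. The values move with the scaling. Over the settings tried Ifit3 ranged from 0.16 to 0.60, Ifi44 from 0.16 to 0.59, Oasl2 from 0.01 to 0.59 and Gbp2 from -0.95 to -0.43.

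**Figure D5:**
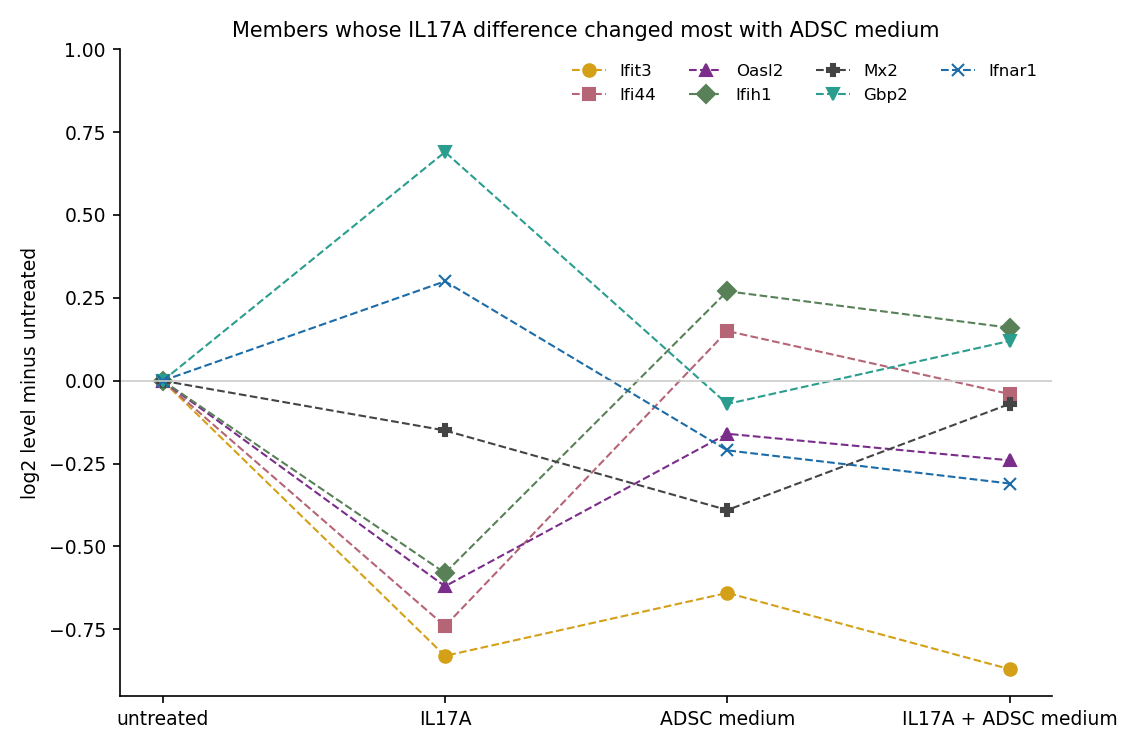
Log2 level on each array minus that on the untreated array (y axis) for the 7 members with the largest differences of differences; dashed lines join the 4 arrays of a gene and are no time course. Ifi44, Oasl2 and Ifih1 are low with IL17A alone and nearer to untreated on both medium arrays, Gbp2 and Ifnar1 are high with IL17A alone, and Ifit3 is below untreated on the 3 treated arrays.

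With both agents against untreated, 20 of 34 members were below 0 (58.8%), against 46.7% of genes, with a median of -0.13 against 0.029. At 1.5-fold, by brightest probes, 9 of 34 were lower (26.5%), against 10.5% of genes, and none higher, against 9.29%. The second Ifnar2 probe was higher by 1.19. The 9 were Ifit2 (-1.68), Ddx58 (-0.93), Ifit1 (-0.89), Ifit3 (-0.87), Irf1 (-0.67), Isg20 (-0.65), Parp9 (-0.65), Xaf1 (-0.63) and Parp14 (-0.63). At 2-fold Ifit2 alone was lower (2.94%), against 4.29% of genes, at 3.20-fold. This comparison shares its arrays with the others.
By array, the level was highest on the untreated array for 15 of 34 members (44.1%), against 21.6% of genes. It was highest on the array with both agents for 2 of 34 (5.88%), against 25.4%. It was lowest on the IL17A array for 12 and on the array with both for 13, against 27.3% and 27.1% of genes (35.3% and 38.2% of members). The median range over the 4 arrays was 0.57 for members and 0.39 for all genes, whereas a range of 1 or more was seen in 1 of 34 members (2.94%) and 11.6% of genes. The members' mean levels were 7.05 or more, while the 5th percentile of all genes was 3.70, where the spot error was larger. The part of dim genes in the share of all genes was not tested.

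The values of members with and without the response element in their promoter overlapped. The median IL17A difference without medium was -0.17 for the 13 members with the element and -0.13 for 16 measured members without. In all, 10 of 13 and 12 of 16 were below 0, against 49.5% of all genes. For medium alone the medians were -0.073 and 0.055, with 7 of 13 and 7 of 16 below 0, against 43.6% of all genes.

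The authors' deposited table of genes higher with IL17A than untreated holds 861 probes, 1 per gene, where the array has 26683 genes. Of the 35 members it holds 1, Gbp2. The authors' deposited table of genes lower when medium was added to IL17A holds 1193 probes, again 1 per gene. Of the 35 members it holds 3, namely Ifit1, Ifit2 by its brighter probe, and Ifnar1. The second Ifnar2 probe is in neither, although its difference with IL17A, 1.33, was above the median of 1.07 over the probes of the first table. How these tables were cut is not stated in the sources used here.

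Other genes of the pathway were read from lists of ligands, signalling, sensing, further effectors, GTPases and antigen presentation. Of 12 interferon ligands on the array, 3 were above background on all 4 arrays and Ifnb1 and Ifng on none. Ifnz, a type I ligand, read 7.71, 7.96, 7.67 and 7.54.
Of 10 signalling genes, 1 was past 2-fold with IL17A, against 4.48% of genes without medium and 4.68% with it. Socs3, the feedback inhibitor of gp130 and STAT3 signalling, read 10.84, 12.55, 11.25 and 12.41, so both IL17A arrays were above both others, by 1.72 and 1.16. Stat3 was higher by 0.67 with IL17A alone and Ptpn6, a phosphatase that acts on JAK kinases, lower by 0.61.
In the sensing list 1 of 11 genes was past 2-fold with medium, higher, against 2.45% of genes. Irf5, a factor downstream of Toll-like receptors, read 6.65, 5.91, 7.96 and 6.91, by 1.31 higher with medium alone and by 1.05 lower with IL17A in the presence of medium.
The 31 further effectors above background on all arrays had median IL17A differences of -0.22 without medium and -0.19 with it. Of them 21 were below 0 with IL17A alone and 25 with medium present, against 49.5% and 57.0% of all genes. Median scaling gave 16 and 28, and 21 and 24 below the median of all genes. Past 2-fold with IL17A alone, 3 genes of the 31 were higher and 2 lower, where 4.48% of all genes passed in either direction. Ifitm1 and Ifitm2, which block virus entry, were higher, Ifitm1 by 1.35 and Ifitm2 at 13.74 against 12.64, as was the dim Ifi205 by 1.09. Oas2, an oligoadenylate synthetase, was lower, with -1.45, and Sp100, a nuclear body protein, was just past 2-fold lower. With medium present none of the 31 passed 2-fold, against 4.68% of genes, and Cxcl10, a chemokine, read 12.82, 13.54, 12.04 and 12.93.
Of 9 GTPases of the interferon gamma response, 7 were below 0 with IL17A alone (median -0.33), against 49.5% of all genes. With medium present 7 were below 0 (median -0.27), against 57.0%. Median scaling gave 6 and 7. Gbp5 was higher by 1.53 and Tgtp1 was at -1.08 without medium. Of 9 antigen presentation genes 8 were below 0 in both IL17A comparisons, where 49.5% and 57.0% of all genes were below 0 in each. Among the 8 were Psmb9 of the immunoproteasome (-0.60 and -0.29) and H2-K1, a class I heavy chain (-0.56 and -0.31). The medians were -0.36 and -0.22, and median scaling left 8 of 9 below 0 in each. With medium alone 7 of the 9 were above 0 and 2 below, where 43.6% of all genes were below 0. Their median was 0.27. Under median scaling all 9 were above 0, but the median of all genes was then also 0.27. Relative to the median of all genes, 3 of the 9 were lower under quantile and under median scaling.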

How the data were processed

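RNA of 4 cultures, 1 per group, was labelled with Cy3 per the labels' protocols and read on Agilent arrays with Feature Extraction 12.1.1.1 per the file headers, which place probes on mm9. The deposited intensity values had the background subtracted and a spatial trend removed on each array separately, per the file headers. Deposited score columns hold 0 or 1 flags for spot quality. Quantile normalization by the authors is named in the series' design text, and R 3.5.1 per the submitters' processing notes. The authors' deposited gene lists hold probe IDs.

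Quantile normalization of the log2 processed signals was done with limma 3.58.1 in R 4.3.3. Control spots and 91 to 126 outlier spots per array were left out. The probe of highest mean level stood for a gene. A gene counted as higher or lower at a log2 difference of 1 or more in size, if the brighter array had its probe well above background. A dimmer value was raised to the lowest value well above background on its array. Each group has 1 array, so these differences have no test, and the number of arrays limits the precision. For the additive fit, lmFit was followed by eBayes with a trend and Benjamini-Hochberg adjustment over all genes tested. It was tested on simulated data. Members named in full were those past 2-fold, those whose probes disagreed at 0.5 or more, the receptors and the transcription factors; others were added by role. Members, lists and rules were chosen with earlier results of these data known. Other scalings, background correction, filters, probe rules and thresholds were tried.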

Additional observations from a re-analysis of the deposited data

How the results depend on the processing

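Under median scaling the members' median was 0.018 for IL17A against untreated, -0.33 for IL17A with medium against medium, 0.17 for medium against untreated and -0.24 for medium with IL17A against IL17A. At a 1.5-fold threshold the members past it were 4 for IL17A against untreated, 3 for medium against untreated, 7 for medium with IL17A against IL17A and 9 for both against untreated. At 4-fold they were 0 for medium against untreated, 0 for medium with IL17A against IL17A and 0 for both against untreated. The members' median difference of differences was -0.054 with the mean of probes. The additive fit called 0 members without a trend and 0 with 75th percentile scaling. Of members at 0.5 or more in size (9, 2, 6, 8 and 11 in the 5 comparisons), 0 changed sign under any scaling, background or probe setting.

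The split of genes higher and lower by 2-fold also moved with scaling. For IL17A against untreated it was 345 and 363 with quantile, 263 and 533 with 75th percentile and 411 and 324 with median scaling. With medium present it was 460 and 292, 722 and 171, and 402 and 326. For medium against untreated it was 394 and 479, 269 and 655, and 467 and 402. For medium with IL17A against IL17A it was 511 and 494, 774 and 372, and 444 and 585. With normexp the first of these was 96 and 65. No paired analysis was possible because each group has 1 array, so groups share fewer than 2 replicate numbers, and for the same reason no array could be left out. The additive fit, whose medium term is also the slide, compares IL17A within slides. Dim probes set the limit of what could be read, with a spot error of 0.51 below a level of 5.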

Other observations

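Ifit genes outside the 35 were looked at after the values above had been seen. Ifit3b, a close relative of Ifit3, read 5.26 untreated, 4.72 with IL17A, 4.50 with medium and 3.99 with both, so its medium differences were -0.75 and -0.73. Ifit1bl1 was above background on 2 arrays and Ifit1bl2 on none.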
